A study of Mus musculus with 11 samples.

Results

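The genes described here are 9 markers of Kupffer cells, the resident macrophages of the liver, and of macrophages in general, followed through normal mouse liver development. They are Csf1r, Emr1, Cd68, C1qa, C1qb, Cd5l, Marco, Vsig4 and Timd4, taken by name from a list and matched to the gene names of the array, among 16702 genes tested. All 9 were on the array, and the probe standing for each was well above background in the liver channel on all 11 arrays and saturated on none.

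Liver RNA came from embryonic day 14 (E14.5, 3 arrays), embryonic day 18 (E18.5, 3 arrays), postnatal day 5 (P5, 2 arrays, replicates 2 and 3) and postnatal day 56 (P56, 3 arrays), where the labels give whole days and the names E14.5 and E18.5 follow the study's results text. No treatment, genetic change or sex is stated for these livers, and a strain (C57BL/6) is given only for the embryos whose cells were purified. Each array set liver RNA, labeled with Cy5, against a common reference of commercial normal adult mouse liver RNA, labeled with Cy3, so a log2 ratio below 0 is a level below that adult pool. The labels name liver as the source of every array and describe the replicates as biological, but their cell type entries read hepatoblasts at E14.5, immature hepatocytes at E18.5 and hepatocytes after birth, and the methods describe both whole livers and cells purified with an antibody to E-cadherin, so what the embryonic arrays hold is not settled here. Spots well above background in Cy5 numbered 22027 to 25718 on the embryonic and P5 arrays and 16790 to 23079 at P56. Arrays of the same stage correlated across the genes tested with Pearson's r of 0.969 to 0.990 before birth, 0.901 for P5 and 0.827 to 0.937 for P56. By their scan times the arrays fell into 4 scans, and E18.5 replicate 1 shared a scan with the E14.5 arrays and P5 replicate 3 with the P56 arrays.

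Kupffer cells line the liver sinusoids and clear particles, bacteria and aged red cells from portal blood. They are seeded before birth by precursors from yolk sac and fetal liver and then maintain themselves in the tissue, depending on signals through the receptor of the growth factor CSF1. Csf1r encodes that receptor, Emr1 the surface antigen by which mouse macrophages are most often recognised (its RefSeq symbol is now Adgre1), and Cd68 a protein of the endosomes and lysosomes of phagocytes. C1qa and C1qb encode chains of C1q, which starts the classical complement pathway and is made largely by macrophages. Cd5l encodes a secreted protein of tissue macrophages, Marco a scavenger receptor for bacteria and particles, Vsig4 a receptor for complement C3 fragments that resident macrophages use to capture bacteria, and Timd4 a receptor for phosphatidylserine on dying cells.

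The array reads each gene through probes of 60 bases. The probes of both C1q chains are shown because these chains form part of 1 protein but ended at different levels relative to E14.5. The C1qa probe lies at chr4:136274931-136274990 and the C1qb probe at chr4:136259100-136259159, both on the minus strand in the mm7 coordinates of the array files, and the probes share 11 of 60 bases when set base by base.
C1qa: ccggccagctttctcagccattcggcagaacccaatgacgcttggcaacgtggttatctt
C1qb: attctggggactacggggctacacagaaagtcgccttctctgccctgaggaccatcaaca

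The 250 bases before the start of 3 genes are shown because these genes had the largest rise before birth (Cd5l), the largest fall after birth (Marco) and the largest remaining difference between P56 and E14.5 (Vsig4). They come from RefSeq in build GRCm38.p6, at chr3:87357631-87357880 on the plus strand for Cd5l, chr1:120505025-120505274 on the minus strand for Marco and chrX:96293439-96293688 on the minus strand for Vsig4, each read 5′ to 3′ in the direction of the gene. Capitals mark the letters GAGGAA on either strand (TTCCTC on the other), a sequence of the kind bound by PU.1, the factor that macrophage development depends on.
Cd5l: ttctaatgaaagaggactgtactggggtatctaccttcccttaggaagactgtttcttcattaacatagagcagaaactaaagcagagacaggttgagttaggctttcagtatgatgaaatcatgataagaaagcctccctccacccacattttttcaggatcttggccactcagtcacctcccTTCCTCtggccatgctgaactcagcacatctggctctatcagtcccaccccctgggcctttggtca
Marco: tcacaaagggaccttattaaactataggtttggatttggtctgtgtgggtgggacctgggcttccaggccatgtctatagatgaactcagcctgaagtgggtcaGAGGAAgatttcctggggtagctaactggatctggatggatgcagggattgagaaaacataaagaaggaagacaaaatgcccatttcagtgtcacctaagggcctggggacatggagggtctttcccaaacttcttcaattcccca
Vsig4: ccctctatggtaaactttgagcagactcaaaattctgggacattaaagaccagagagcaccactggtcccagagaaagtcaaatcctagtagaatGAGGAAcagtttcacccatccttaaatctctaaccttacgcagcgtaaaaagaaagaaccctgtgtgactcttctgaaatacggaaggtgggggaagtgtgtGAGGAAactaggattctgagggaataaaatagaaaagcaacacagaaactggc

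Of the 6 genes with an entry in the promoter table, 5 held these letters in the 250 bases (Cd68, C1qb, Cd5l, Marco and Vsig4, the last with 2 matches) and Timd4 held none. Of 32851 promoters in the table, 23.3% held them. A match of 6 letters is a description of the sequence and not a measured site.

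All 9 genes were below the adult reference on every array with a value, where 16.2% of all genes tested were. The highest single value was that of Marco on P5 replicate 2, at -0.15. The adult P56 livers lay below the adult reference as well, and this held for all 9 genes on every P56 array with a value, against 39.4% of all genes. For the hepatocyte markers, in contrast, the median log2 ratio of the P56 arrays was -0.49 to -0.07, while that of the 9 macrophage genes was -2.32 to -1.62. Low medians at P56 were not particular to the 9 genes. The median was -2.07 to -1.38 for neutrophil markers and -1.82 to -1.17 for other macrophage genes of lysosomal, secreted and iron-handling proteins. For erythroid markers it was -0.08 to -0.03. No array had its dyes swapped, so a dye effect and a difference between the P56 livers and the commercial pool cannot be told apart in these ratios. Between stages a constant dye effect cancels.

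**Figure D1:**
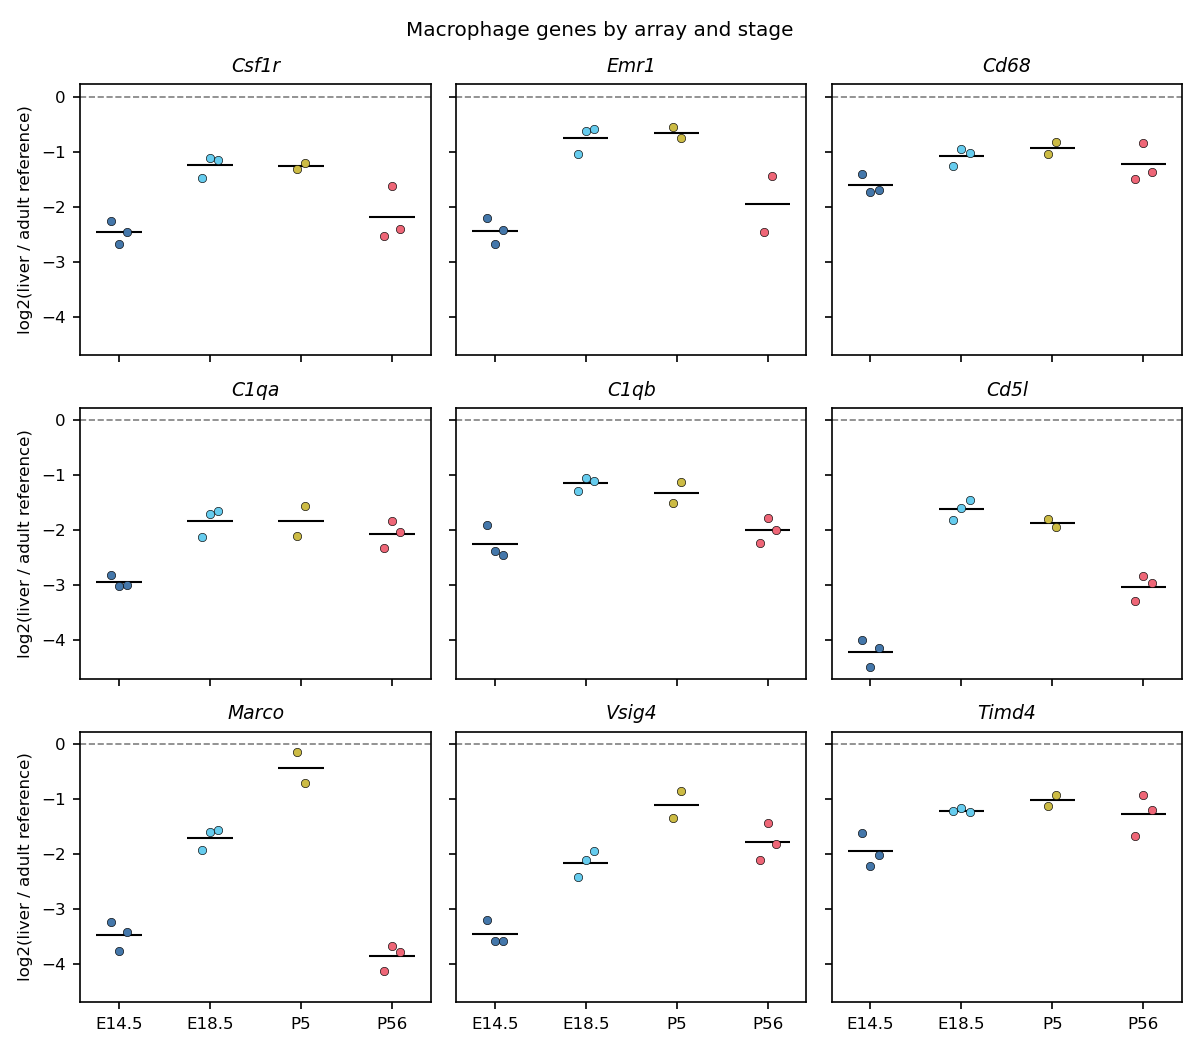
Log2 ratio of liver over the adult reference (y axis) for the 9 macrophage genes at 4 stages (x axis), with 1 point per array and a line at the mean of each stage. All points lie below 0, every gene is higher in E18.5 than in E14.5 livers without overlap, and Marco at P5 lies between -0.71 and -0.15.

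The levels rose before birth. Between E14.5 and E18.5 all 9 genes were higher at an adjusted p under 0.05 (limma over all 11 arrays, Benjamini-Hochberg over all genes tested, as in every comparison below), where 24.6% of all genes were higher and 22.8% lower. In none of the 9 did the arrays of the stages overlap, against 30.9% of all genes that were higher without overlap. The median log2 difference was 1.21, and that of all genes -0.01. In RNA of a mixed tissue, more cells of a type and more RNA per cell cannot be told apart. Whether the embryonic arrays hold whole liver or purified cells is not settled here, and a difference in preparation between the stages was not tested.

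Cd5l had the largest change. Its log2 ratio was -4.0, -4.47 and -4.14 on the E14.5 arrays and -1.80, -1.59 and -1.44 on the E18.5 arrays, so that the lowest E18.5 array stood far above the highest E14.5 array. The log2 difference was 2.59 (SE 0.153, limma adjusted p = 9.6e-08), or 6.02-fold. Marco, the scavenger receptor, read -3.23, -3.76 and -3.42 at E14.5 and -1.93, -1.61 and -1.57 at E18.5, and E18.5 replicate 1 was again the lowest of its stage. Its difference was 1.77 (SE 0.184, limma adjusted p = 1.1e-05).

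Emr1 and Csf1r, the classical surface antigen and the growth factor receptor, also rose. Emr1 was at -2.21, -2.68 and -2.42 at E14.5 and at -1.03, -0.63 and -0.59 at E18.5, a log2 difference of 1.69 (SE 0.234, limma adjusted p = 0.00016). Csf1r was at -2.26, -2.68 and -2.45 and then at -1.47, -1.11 and -1.16, a log2 difference of 1.21 (SE 0.209, limma adjusted p = 0.00051). For both genes E18.5 replicate 1 lay nearest to the E14.5 arrays, with which it shared a scan.

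C1qa and C1qb differed by nearly the same amount at this step. C1qa went from -2.82, -3.01 and -2.99 to -2.12, -1.70 and -1.65, a log2 difference of 1.12 (limma adjusted p = 0.00024). C1qb went from -1.91, -2.38 and -2.45 to -1.28, -1.05 and -1.11, a log2 difference of 1.1 (limma adjusted p = 0.00020). Vsig4, the C3 receptor, went from -3.19, -3.58 and -3.59 to -2.43, -2.11 and -1.95, a log2 difference of 1.29 (limma adjusted p = 0.00022).

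The smallest changes were those of Timd4 and Cd68. Timd4 was at -1.61, -2.22 and -2.02 at E14.5 and at -1.22, -1.17 and -1.24 at E18.5, a log2 difference of 0.74 (limma adjusted p = 0.0059). Cd68 was at -1.41, -1.73 and -1.69 and then at -1.26, -0.94 and -1.03, a log2 difference of 0.53 (limma adjusted p = 0.020). The gap between the stages was only that between -1.41 and -1.26 for Cd68, and its call was lost when 1 of E14.5 replicate 2, E14.5 replicate 3, E18.5 replicate 2 or E18.5 replicate 3 was left out (log2 difference 0.47 to 0.51) and with the scan as a fixed block (0.35, limma adjusted p = 0.29). Both probes were dim, and with the scanner software's own signals, which add no offset, the differences were 0.70 for Cd68, 1.09 for Timd4 and 1.84 for Vsig4.

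Within the scan that held E18.5 replicate 1 and the E14.5 arrays, each of the 9 genes was also higher on the E18.5 array, with a median difference of 0.99 on the log2 scale and single genes between 0.35 and 2.40. Timd4 was not called once the scan entered the fit as a fixed block (0.73, limma adjusted p = 0.072), nor was Emr1 in the authors' table of log2 ratios (1.01, limma adjusted p = 0.052). The direction of the 9 genes held under every alternative normalization, but when the log ratios of all arrays were scaled to the same spread none of the 9 passed (median 0.83), and over all genes 1837 were then higher and 1297 lower in place of 4106 and 3802.

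**Figure D2:**
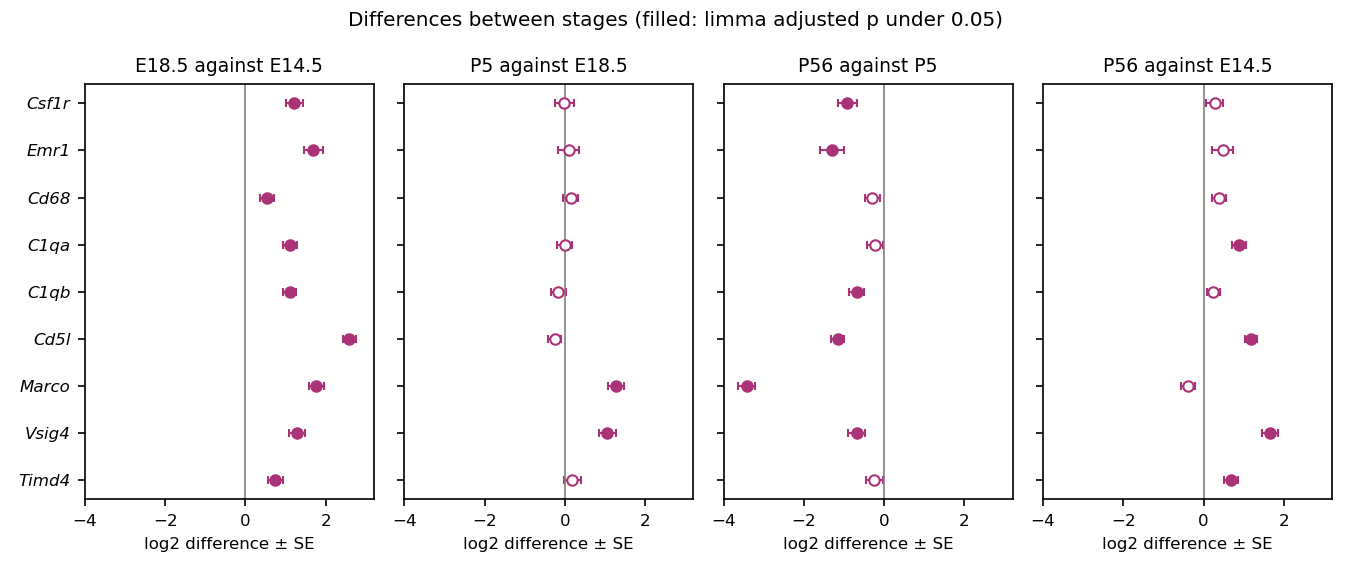
Log2 difference between stages (x axis) for the 9 macrophage genes (y axis) in 4 comparisons, as points with bars of 1 standard error from limma. Filled points passed an adjusted p under 0.05. All 9 genes lie above 0 for E18.5 against E14.5, and Marco lies farthest below 0 for P56 against P5, at -3.43.

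After birth the group split. Between E18.5 and P5, 2 of the 9 genes were higher at an adjusted p under 0.05, where 7.32% of all genes were higher (1223, but 582 without P5 replicate 3, 1851 without P5 replicate 2, 769 without E18.5 replicate 2 and 705 without E18.5 replicate 3), none was lower, and the median over the 9 genes was 0.10, with no settled sign (-0.74 after scaling to the same spread, where neither gene passed). These were the receptors Marco and Vsig4. Marco reached -0.15 and -0.71 at P5, above every E18.5 array, a further log2 difference of 1.27 (SE 0.206, limma adjusted p = 0.0022). Vsig4 reached -1.35 and -0.85 at P5, also above every E18.5 array, a log2 difference of 1.06 (SE 0.22, limma adjusted p = 0.0089), which was 0.81 and not called without P5 replicate 3 (limma adjusted p = 0.097).

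The other 7 genes differed between E18.5 and P5 by -0.25 (Cd5l) to 0.19 (Timd4) on the log2 scale, with limma adjusted p from 0.36 to 0.98. Only the Timd4 arrays of these did not overlap, by the small gap between -1.17 and -1.12. The P5 group held 2 arrays, which limits what this comparison can show. Against E14.5, all 9 genes were higher at P5, where 24.9% of all genes were, and the largest of these differences was that of Marco, at 3.04 (8.23-fold, limma adjusted p = 3.2e-07). In the authors' table of log2 ratios, Marco and Vsig4 differed between P5 and E18.5 by 1.30 and 1.18, and neither passed (limma adjusted p = 0.074 and 0.091).

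Between P5 and P56 the levels fell. At P56, 6 of the 9 genes were lower at an adjusted p under 0.05, where 24.7% of all genes were lower, and none was higher. The arrays of those 6 did not overlap, against 33% of all genes that were lower without overlap. The median over the 9 genes was -0.69, and that of all genes -0.02.

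Marco, which had risen most, fell most. Its P56 arrays read -4.13, -3.66 and -3.78, against -0.15 and -0.71 at P5, a log2 difference of -3.43 (SE 0.206, limma adjusted p = 1.8e-07), or 10.8-fold lower. The P56 arrays then overlapped the E14.5 arrays, which read -3.76 to -3.23. Within the scan that held P5 replicate 3 and the P56 arrays, the difference was -3.15.

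Emr1 fell to -2.46 and -1.44 at P56, where replicate 3 gave no value because its spot was marked as an outlier and was left out. The log2 difference was -1.30 (SE 0.287, limma adjusted p = 0.0037). Without P56 replicate 1 it was -0.79, with replicate 2 as the only P56 array left for Emr1. Cd5l fell to -3.29, -2.84 and -2.95 from -1.80 and -1.94, a log2 difference of -1.16 (limma adjusted p = 0.00020). Csf1r fell to -2.54, -1.62 and -2.40 from -1.31 and -1.21, a log2 difference of -0.92 (limma adjusted p = 0.0070). In the authors' table neither Emr1 (-0.72, limma adjusted p = 0.19) nor Csf1r (-0.45, limma adjusted p = 0.23) passed. After normalization P56 replicate 2, with the fewest spots above background, had the highest ratio of its stage for all 9 genes, with only 2 arrays to compare for Emr1. Its Cy5 signal before normalization was instead the lowest of the stage for all but Csf1r and Emr1. For Cd5l that signal was 2176, against 3063 on replicate 1 and 3263 on replicate 3.

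C1qb and Vsig4 fell by less, and their calls depended on single arrays. C1qb went from -1.51 and -1.12 to -2.22, -1.78 and -1.99, a log2 difference of -0.69 (limma adjusted p = 0.010), and Vsig4 from -1.35 and -0.85 to -2.12, -1.43 and -1.82, also by -0.69 (limma adjusted p = 0.024). Without P5 replicate 3 neither was called (C1qb -0.49 with limma adjusted p = 0.083, Vsig4 -0.44 with limma adjusted p = 0.18), and Vsig4 was also lost without P56 replicate 1 (-0.52) and without P56 replicate 3 (-0.67). C1qa, Timd4 and Cd68 differed by -0.23, -0.24 and -0.30 and were not called (limma adjusted p = 0.36, 0.36 and 0.21), although Cd68 passed without P56 replicate 2 (-0.50, limma adjusted p = 0.019). Within the shared scan each of the 9 genes was lower at P56, by a median of -0.94.

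The size of this fall depended on the scaling of the P56 arrays. With loess replaced by centring of every array on its median log ratio, the median of all genes was itself -0.47, and that of the 9 genes was -1.60. When the log ratios were scaled to the same spread, the median of the 9 genes was -0.09 and only Marco passed. Against E18.5, 5 genes were lower at P56 (Marco, Cd5l, Emr1, C1qb and, by its brightest probe only, Csf1r), where 33.6% of all genes were lower.

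From E14.5 to the adult, 4 of the 9 genes were higher at P56 at an adjusted p under 0.05 and 5 were not called, where 36.1% of all genes were higher, but the median over the 9 genes was 0.48 after loess, -0.23 after median centring and -0.25 after scaling to the same spread. The median of all genes was 0.04, -0.33 and 0.02 in the same order, so the group lay above it after loess and median centring and below it after scaling. Vsig4 was higher by 1.66 (SE 0.197, limma adjusted p = 1.1e-05), Cd5l by 1.18 (limma adjusted p = 2.4e-05), C1qa by 0.88 (limma adjusted p = 0.00067) and Timd4 by 0.68 (limma adjusted p = 0.0056). Of these only the Timd4 arrays overlapped between the stages, with P56 replicate 1 at -1.67 and E14.5 replicate 1 at -1.61. Under median centring Timd4 turned to -0.16, and under scaling to the same spread Cd5l turned to -0.25 and C1qa to -0.088, while Vsig4 stayed above 0 in both. Marco was the lowest, at -0.39 (limma adjusted p = 0.078), and C1qb, Csf1r, Cd68 and Emr1 differed by 0.25, 0.28, 0.38 and 0.48 with limma adjusted p from 0.058 to 0.25.

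Csf1r was read by 3 probes, which gave differences of unequal size. The brightest, which stands for the gene above, was higher on the E18.5 than on the E14.5 arrays by 1.21. The second read -1.47, -1.72 and -1.68 at E14.5 and -1.22, -0.99 and -1.0 at E18.5, a log2 difference of 0.55 (limma over 23523 probes, adjusted p = 0.0049). The dimmest read -0.37, -0.69 and -0.54 and then -0.73, -0.56 and -0.61, so its arrays overlapped, with a difference of -0.10 (limma adjusted p = 0.52). Between P5 and P56 the probes differed by -0.92, -0.28 and 0.03 in the same order, and only the brightest was called, so the fall of Csf1r after birth rests on that probe (mean over the probes -0.39, limma adjusted p = 0.068). Between E18.5 and P56 they differed by -0.94, -0.18 and 0.33 (limma adjusted p = 0.0019, 0.25 and 0.025), so the dimmest was called in the other direction. Against E14.5 the second probe was higher at P56 by 0.37 (limma adjusted p = 0.025), while the brightest was not called. The dimmest probe was well above background on only 2 of the 3 E14.5 arrays and 1 of the 3 P56 arrays, so its values lie near the limit of measurement. A second Emr1 probe was too dim to pass the filter. The other 7 genes had 1 probe each.

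**Figure D3:**
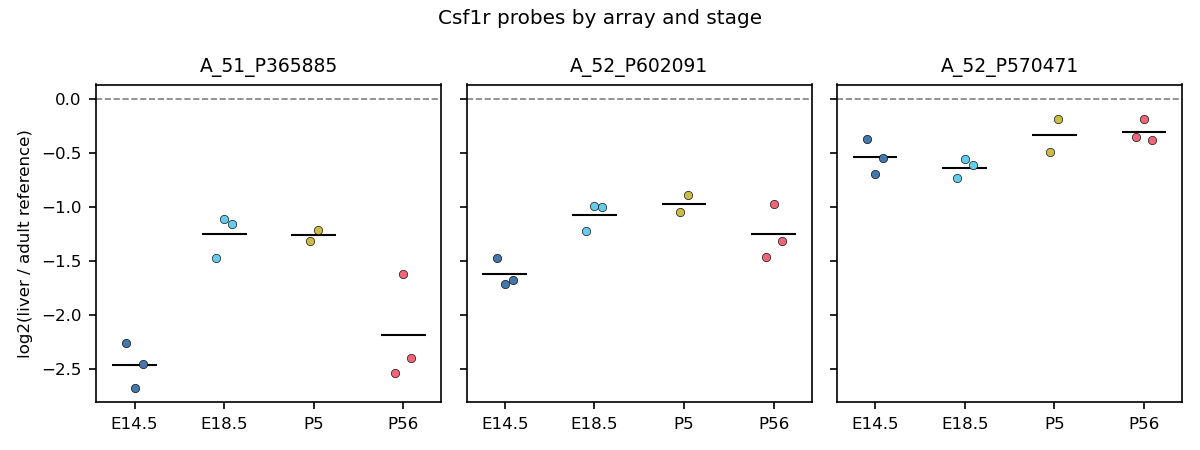
Log2 ratio of liver over the adult reference (y axis) for the 3 Csf1r probes, from the brightest (left) to the dimmest (right), at 4 stages (x axis), with 1 point per array and a line at each mean. The brightest probe lies at -2.46 on average at E14.5 and -1.25 at E18.5, while the dimmest stays between -0.73 and -0.19.

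Relative to the adult reference, C1qa lay below C1qb until P5 and near it at P56. C1q is built from the products of C1qa, C1qb and C1qc, so their ratios can be set against each other within an array, where a shift common to the array cancels. This comparison was chosen after the values had been seen. The log2 ratio of C1qa less that of C1qb was -0.91, -0.63 and -0.54 on the E14.5 arrays and -0.83, -0.65 and -0.54 on the E18.5 arrays. It was -0.59 and -0.44 on the P5 arrays, and on the P56 arrays it was -0.09, -0.05 and -0.04. The P56 arrays thus stood apart from all 8 earlier arrays, and the shift from E14.5 to P56 was 0.63 (p = 0.10 by a two-sided exact permutation test, which cannot go lower with 3 arrays against 3). The shift was 0.48 to 0.76 under the 6 other normalizations and sources of values run. The level at P56 depended on the setting. C1qa lay above C1qb on every P56 array in the authors' table (0.11 to 0.17), with processed signals (0.13 to 0.24) and after median centring (0.06 to 0.12). After scaling to the same spread it lay below, at -0.10 to -0.04.

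C1qc, the third chain, rose from -2.49 ± 0.102 (SD, n = 3) at E14.5 to -0.91 ± 0.0622 (SD, n = 3) at E18.5, by 1.57 (limma adjusted p = 6.8e-07), and fell by 1.01 on the log2 scale from P5 to P56 (limma adjusted p = 8.2e-05). C1qa minus C1qc had means of -0.45 (E14.5), -0.91 (E18.5), -0.82 (P5) and -0.04 (P56). C1r and C1s, the proteases that C1q activates and that hepatocytes also make, were higher at E18.5 by 2.69 and 2.70, and neither was called between P5 and P56. Relative to the adult reference, C1qa had the lowest mean of the chains at every stage before P56. At P56 the mean differences between chains were -0.06 to -0.02, but C1qc minus C1qb was 0.31 after median centring. C1qa minus C1qc was then -0.23 after median centring and 0.24 with processed signals.

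**Figure D4:**
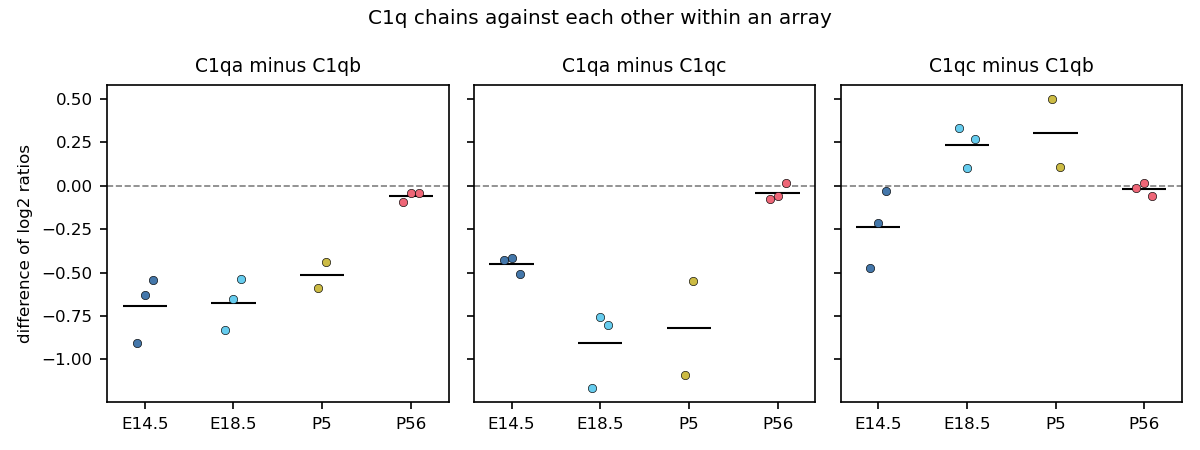
Difference between the log2 ratios of pairs of C1q chains (y axis) at 4 stages (x axis), with 1 point per array and a line at each mean. C1qa minus C1qb lies between -0.91 and -0.44 before P56 and between -0.09 and -0.04 at P56.

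The 9 genes resembled each other across the 11 arrays to different degrees. Over the 36 pairs Pearson's r was 0.54 to 0.98 with a median of 0.84, as a description over arrays that share stages and a reference. Emr1 and Csf1r were the most alike and Marco and Vsig4 the least, with Marco at a mean of -3.86 and Vsig4 at -1.79 in the P56 livers. The other genes of the array whose profile was most like the mean profile of the 9 were Admr, Cd97, Cfp, Slc11a1, Pira3, Ptprc, Ltb, Fpr1, Pla2g7 and Clec4n, with r from 0.987 to 0.975 over 11 arrays. Each of the 9 genes, though part of that mean, was less like it, with r from 0.968 (Emr1) down to 0.842 (Vsig4) and 0.805 (Marco).

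Other macrophage genes were described by lists that hold none of the 9, with counts after loess unless stated. Between E14.5 and E18.5, 24.6% of all genes were higher and 22.8% lower. Of 11 genes for lysosomal, secreted and iron-handling proteins, all 11 were higher in E18.5 than in E14.5 livers, with a median log2 difference of 1.51. The largest were Lyzs (lysozyme, 2.78), Cybb (the oxidase subunit of phagocytes, 2.65) and Lzp-s (a second lysozyme, 2.39), and the lysozyme genes are near copies whose probes may read each other. Of 23 surface and signalling genes, 19 were higher and 1 lower, with a median of 0.80. Clec4f, a lectin particular to rodent Kupffer cells, rose by 2.56, Ptprc (CD45, on all white cells) by 1.57 and Mrc1 (the mannose receptor) by 1.47, and Trem2, a lipid receptor of macrophages, fell by 0.68 on the log2 scale (limma adjusted p = 0.025).

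Of 8 growth factors and regulators, 4 were higher and 1 lower at E18.5, where 24.6% of all genes were higher and 22.8% lower. Spic, a regulator of iron-recycling macrophages, rose by 1.54 and Irf8 by 1.38, and Id3 fell by 0.51 on the log2 scale (limma adjusted p = 0.038). Csf1, the ligand of Csf1r, differed by 0.09 (limma adjusted p = 0.52). Il34, its other ligand, was not matched to a name on the array.

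Between E18.5 and P5 the counts were smaller, and 7.32% of all genes were higher. Of the surface genes 3 were higher, which were Cd163 (the haemoglobin scavenger receptor, 1.71), Cd14 (the co-receptor for bacterial lipopolysaccharide, 0.76) and Mrc1 (0.62), and of the regulators 2, among them Nr1h3 (the oxysterol receptor, also expressed by hepatocytes, 0.54). None of the 11 lysosomal, secreted and iron genes was called in either direction.

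Between P5 and P56, 9 of the 11 lysosomal, secreted and iron genes and 11 of the 23 surface genes were lower and none was higher. Over all genes, 24.7% were lower and 3483 of 16702 higher. Hmox1, which breaks down haem, fell most, by 2.48 on the log2 scale (limma adjusted p = 2.2e-09), followed by Ctss (cathepsin S) with 1.76 and Lyzs with 1.24. Among the surface genes Sirpa fell by 1.28 and Ptprc by 1.16 on the log2 scale, and Itgam, a subunit of a complement receptor, was lower as well but well above background on none of the 3 P56 arrays, so no size is given. Of the regulators Spic fell by 1.97 and Irf8 by 0.92 on the log2 scale, while Nr1h3 rose by 1.01. Cd163, higher at P5 than at E18.5 like Marco and Vsig4, then differed by 0.30 between P5 and P56 (limma adjusted p = 0.20).

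Against E14.5, 11 of the 23 surface genes were higher at P56 and 2 lower after loess, where 6033 of all 16702 genes were higher and 5805 lower, and 3 were higher and 11 lower after median centring, where 2444 of all genes were higher and 8240 lower. The median of the list was 0.26 after loess and -0.29 after median centring, and that of all genes moved from 0.04 to -0.33 with it. Over the surface, regulator and lysosomal lists the largest differences given here after loess were those of Cd163 (2.82), Nr1h3 (2.25), Clec4f (2.04) and Mrc1 (1.71), and Hmox1 (-1.47) and Runx1 (a regulator of blood cell formation, -0.74) were the lowest.

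Markers of other cells moved over the same stages. All 9 neutrophil markers rose from E14.5 to E18.5 (median log2 difference 3.16), and all 9 were lower at P56 than at P5. Their median log2 ratio lay between -0.18 and 0.02 on the E14.5 arrays, between 2.98 and 3.02 on the E18.5 arrays, between 1.97 and 2.19 on the P5 arrays and between -2.07 and -1.38 on the P56 arrays, so they rose before birth and fell after P5 like the macrophage genes, with a decrease already at P5 in 5 of the 9. Phagocyte genes such as Cybb, Lyzs and Itgam are also expressed by neutrophils. Of 10 endothelial markers, 6 were higher at E18.5 and 7 lower and 1 higher at P56 than at P5. Of 9 hepatocyte markers, 8 were higher at E18.5, while 3 were higher and 2 lower at P56 than at P5.

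The 12 erythroid markers had no settled direction between E14.5 and E18.5 (median difference -0.06, and 0.25 after scaling to the same spread). Their median log2 ratio was 3.35 to 3.46 at E14.5 and 2.98 to 3.23 at E18.5, with 1 higher and 2 lower, and it was -0.08 to -0.03 at P56, where all 12 were lower than at P5. The part of these other cells in the levels of the 9 genes was not tested. All 9 neutrophil markers and all 12 erythroid markers, like the 9 macrophage genes, were well above background on every embryonic array. This was common among the genes tested, of which 16702 passed the filter and 11322 remained with probes well above background on all 11 arrays. Which cells the embryonic arrays hold was not tested.

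**Figure D5:**
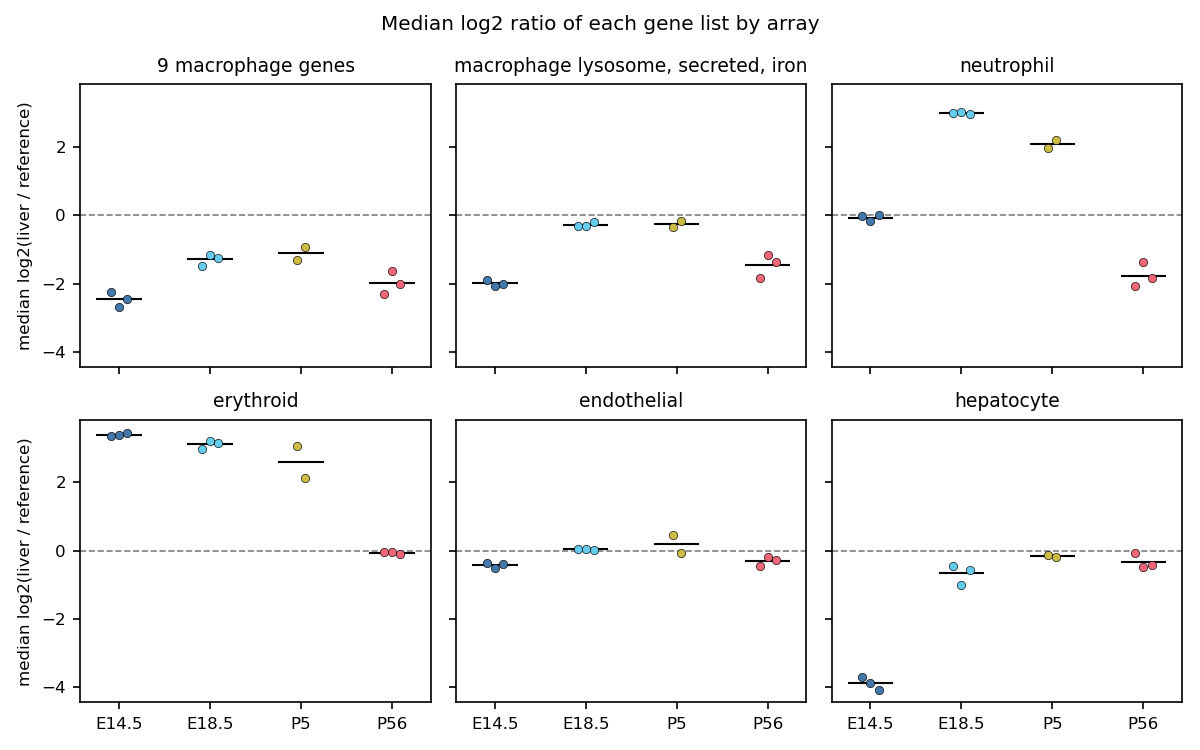
Median log2 ratio of liver over the adult reference (y axis) over the genes of 6 lists at 4 stages (x axis), with 1 point per array and a line at each mean. The 9 macrophage genes, the further macrophage genes and the neutrophil markers are higher for E18.5 than for E14.5 and lower at P56, and the erythroid markers lie above 2 until P5.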

How the data were processed

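Agilent 2-colour mouse arrays measured 11 liver RNA samples (3 of E14.5, 3 of E18.5, 2 of P5 and 3 of P56) in Cy5 against commercial adult liver RNA in Cy3. The deposited intensity values are the mean spot and background signals that the authors' scanner software, Feature Extraction 9.5.1.1, wrote for each array, without further normalization, and its deposited processed signals are corrected for background and dye. The authors also deposited a table of log2 ratios, normalized with limma per the submitters' notes (version not given in the sources used here). Other deposited columns hold quality marks (well above background, saturated, outlier).

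Here the intensities were corrected with normexp (offset 50) and normalized within arrays by loess in limma 3.58.1 under R 4.3.3, with control spots (1639) given weight 0 and then removed, leaving 43379 spots, and with outlier spots (177 to 356 per array) left out. Spots of a probe were averaged. Probes were kept whose Cy5 signal was well above background on every array of 1 stage or more and missing on at most 1 array per stage (23523 probes), and the brightest stood for its gene (16702 genes, 263 with a missing value). A single linear model over 11 arrays with empirical Bayes moderation tested the stages, and p-values were adjusted by Benjamini-Hochberg and called under 0.05, after a check on simulated data. The number of arrays limits the precision.

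The 9 genes and the lists were chosen with earlier results of these data known. Beside all 9 genes, the text names, per list and comparison, up to 3 called genes in each direction whose arrays do not overlap, and the 10 genes most like the 9 in profile. Csf1, Cd163, Itgam, C1r and C1s are also given where they fall outside that rule, having been chosen after their values were seen. A gene of the regulator list that the rule names is not reported here. Alternatives varied the background correction, normalization, filter, probe rule, source of values, scan, replicate block, test and each array left out. The comparisons of P5 with E14.5 and of P56 with E18.5 under these settings, and those of the C1q chains, were added after seeing the data. Figures were drawn with matplotlib 3.10.9.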

Additional observations from a re-analysis of the deposited data

How the results depend on the processing

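With all arrays scaled to the same spread, the number of the 9 genes called higher was 0 for E18.5 against E14.5 (median 0.83), 0 for P5 against E18.5 (median -0.74), 0 for P5 against E14.5 and 0 for P56 against E14.5 (1 lower, median -0.25, with Csf1r at -0.55, Emr1 at -0.46, Cd68 at -0.13, C1qa at -0.088, C1qb at -0.56 and Cd5l at -0.25), and 1 was lower for P56 against P5 (median -0.088, with Cd68 at 0.23, C1qa at 0.71 and Timd4 at 0.35). For P5 against E18.5 scaling also turned Emr1 (-0.66), Cd68 (-0.68) and Timd4 (-0.74). Median centring gave a median of -1.60 for P56 against P5, 9 lower for P56 against E18.5 (8988 of all 16702 genes were then lower, against 5609), and 2 higher and 4 lower for P56 against E14.5 (median -0.23, with Emr1 at -0.23, Csf1r at -0.50, Cd68 at -0.44, C1qb at -0.62 and Timd4 at -0.16). The authors' table gave 0 higher for P5 against E18.5 (213 of its 28050 genes were), 3 lower for P56 against P5 (2786) and 3 lower for P56 against E18.5 (4262). The Cy5 channel alone gave 1 lower for P56 against E14.5 (6054 of all 16702 genes were) and 1 higher for P56 against E18.5 (5800). The methods' t-test, with Benjamini-Hochberg adjustment, called 0 higher for P5 against E18.5 (40 of all 16702 genes were). It called 0 lower for P56 against P5 (193 of all genes) and 3 lower for P56 against E18.5 (4937 of all genes). Unadjusted, it called 2 lower for P56 against P5 (3052 of all genes). The cause was not tested. Differences between P5 and E18.5 near 0 changed sign for Csf1r (0.11 after median centring, 0.13 with the mean over probes, 0.17 in the authors' table), C1qa (0.13 after median centring, 0.00895 with the scan as a random block), Cd5l (0.069 after median centring), Cd68 (-0.053 with processed signals, -0.012 in the authors' table), Timd4 (-0.017 with processed signals, -0.020 with Cy5 alone) and Emr1 (-0.00245 with the replicate block), and C1qa did so between P56 and P5 (0.12 with Cy5 alone).

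Leaving out 1 array at a time gave 1 to 2 higher for P5 against E18.5, 0 to 1 lower for P56 against E14.5 with a median of 0.18 (without P56 replicate 2) to 0.88 (without P56 replicate 1), and 0 to 1 higher for P56 against E18.5. Over the same runs Csf1r lay between -0.13 and 0.053, Emr1 between -0.045 and 0.20, C1qa between -0.28 and 0.26 and C1qb between -0.36 and 0.030 for P5 against E18.5, C1qa between -0.50 and 0.040 for P56 against P5, and Csf1r between -0.0044 and 0.45 and Emr1 between -0.028 and 1.00 for P56 against E14.5. The counts over all genes that follow are of 16682 to 16702 genes unless stated, but of 28050 in the authors' table, so its counts are not directly comparable. For E18.5 against E14.5, 1837 were higher and 1297 lower after scaling (4106 and 3802 otherwise). They were 3065 and 1733 in the authors' table and 2985 and 2344 with the scan as a fixed block. For P5 against E18.5 (1223 and 1069) the counts were 206 and 183 after scaling, 213 and 79 in the authors' table, 985 and 656 with processed signals, 919 and 555 after median centring and 40 and 21 by the adjusted t-test, and 582 and 346 without P5 replicate 3, 1851 and 1914 without P5 replicate 2, 769 and 621 without E18.5 replicate 2 and 705 and 563 without E18.5 replicate 3. For P56 against P5 (3483 and 4132) they were 651 and 8864 after median centring, 2254 and 2786 in the authors' table, 2015 and 2657 with the scan as a fixed block 105 and 193 by the adjusted t-test and 2071 and 2670 without P5 replicate 2. For P56 against E14.5 (6033 and 5805) they were 2444 and 8240 after median centring. Among only the 11322 genes with probes well above background on all 11 arrays they were 4998 and 3731. After scaling they were 4305 and 4661 for P56 against E14.5 and 3298 and 4031 for P56 against P5. For P5 against E14.5 (4155 and 4033) they were 1761 and 1604 after scaling, 2968 and 1582 in the authors' table and 2773 and 2129 by the adjusted t-test, and for P56 against E18.5 (5207 and 5609) they were 1577 and 8988 after median centring.

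Replicate numbers, taken for P5 from the sample titles since the descriptions number them otherwise, did not pair the samples: over 15 same-numbered pairs the deviations correlated at -0.31 to 0.19, with 1 pair over 0.1. With the replicate block the medians were 1.21 for E18.5 against E14.5, -0.68 for P56 against P5 and 0.51 for P56 against E14.5, and 5 of the 9 genes were lower for P56 against P5, since Vsig4 was not called (-0.63, limma adjusted p = 0.060). No other of the 9 genes changed its call with the block in these comparisons or in P5 against E18.5. A fit with the scan as a fixed block, or within 1 scan, was not possible for P5 against E18.5 or P56 against E14.5. Of the single-gene values, not counting arrays left out, 456 kept both direction and call, 45 lost the call, 6 gained one, 29 changed sign and 6 moved with no test.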
